A study of Sus scrofa with 70 samples.

Results

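The HOX genes were followed through the 5 glands of the boar genital tract. All genes of the merged annotation whose symbol begins with HOXA, HOXB, HOXC or HOXD followed by a number were taken, with antisense genes left out, which gave 37 genes of 35552. They lie in 4 clusters: 9 HOXA genes, 10 HOXB genes, 9 HOXC genes and 9 HOXD genes. Tissue came from boars aged 12 months of 2 breeds, the Banna mini-pig inbred line (BMI), which was bred by inbreeding from the Diannan small-ear pig, and the Diannan small-ear pig itself (DSE), which is not inbred. No treatment is given in the labels. The glands sampled in each breed were the testis with its epididymis and the 3 accessory glands, namely the vesicular, prostate and bulbourethral glands, which makes 10 groups. Each group had 3 RNA-seq libraries, 3 small RNA libraries and 1 PacBio Iso-seq library. The sources used here do not say which region of the epididymis was taken, nor whether the 3 libraries of a group came from 3 boars. The p-values below therefore measure the spread between libraries, which may be technical. The RNA-seq levels are TPM, a transcript abundance scaled to the same total in every library, summed over the transcripts of a gene, and TPM is scaled by transcript length, so that levels of different genes can be set side by side.

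HOX genes encode transcription factors that give cells their position along the body axis. In each cluster the genes stand in the order in which they act along that axis, and genes at the same place in different clusters form a paralogue group with the same number. Low numbers act towards the head and high numbers towards the tail, and groups 9 to 13 pattern the genital tract. Epididymis and vesicular gland grow from the Wolffian duct, prostate gland and bulbourethral gland from the urogenital sinus, and the testis from the gonadal ridge. HOXB13 is known as a prostate factor and partner of the androgen receptor, HOXA13 and HOXD13 as genes of the genital tubercle and urogenital sinus, and HOXA10 and HOXA11 as genes of the genital ducts.

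In the Sscrofa11.1 genome the HOXA genes span chr18:45367309-45480297, the HOXB genes chr12:24784594-24950714, the HOXC genes chr5:19151084-19268257 and the HOXD genes chr15:81893951-81990134. The 37 genes have 131 transcripts in the merged annotation, of which 86 are isoforms from the Iso-seq reads. HOXA4 and HOXA6 carry no symbol in this annotation and were not analysed here. The proteins bind DNA through the homeodomain, whose recognition helix reads the bases, and the stretch of the homeobox that codes for this helix is shown for the group 13 genes and for HOXD8, a gene of lower number. In these lines, read on the coding strand of the RefSeq genome of the same build, capitals mark the 18 bases that code for the core of the helix.
HOXA13: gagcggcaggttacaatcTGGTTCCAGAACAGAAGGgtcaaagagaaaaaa
HOXB13: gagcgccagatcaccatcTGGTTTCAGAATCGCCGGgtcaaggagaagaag
HOXC13: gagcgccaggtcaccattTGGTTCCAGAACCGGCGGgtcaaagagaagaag
HOXD13: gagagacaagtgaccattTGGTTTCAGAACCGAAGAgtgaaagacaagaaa
HOXD8: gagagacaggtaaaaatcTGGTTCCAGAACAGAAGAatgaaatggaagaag
These are exonic, at chr18:45375244-45375294 (HOXA13), chr12:24948724-24948774 (HOXB13, minus strand), chr5:19157553-19157603 (HOXC13), chr15:81895860-81895910 (HOXD13) and chr15:81932722-81932772 (HOXD8). Over the whole homeobox, found for 34 of the 37 genes and for HOXA4 and HOXA6, the 4 genes of group 13 were 69.4% to 77.8% identical to each other. They were 47.8% to 64.4% identical to homeoboxes of other groups, while those other homeoboxes were 50.0% to 93.9% identical to each other.

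Several libraries held transcripts of another tissue. In prostate gland library 2 of BMI, the vesicular gland list (4 of 5 genes matched, all 4 present) summed to 242457 TPM, against 2.14 to 15.4 TPM in the other 5 prostate gland libraries and 317135 to 399306 TPM in the vesicular gland. The prostate list (4 genes, of which 3 reached 1 TPM) was lowest there too, at 88871 TPM against 103893 to 179256 TPM. Epididymis library 1 of BMI held vesicular gland transcripts (5878 TPM) and skeletal muscle transcripts (633 TPM for 6 of 7 genes matched). Skeletal muscle transcripts also stood at 414 TPM in bulbourethral gland library 1 of BMI and at 1464 TPM in library 3 of DSE, against at most 23.2 TPM in the other 4. In testis library 2 of DSE, the germ cell list (5 genes) summed to 22734 TPM against 65046 to 99481 TPM in the other 5. Of the epididymis list (3 of 5 genes matched), CRISP1 was at 21.3 TPM in epididymis library 1 of DSE and at 1100 to 2759 TPM in the other 5, DEFB129 was at 0.812 TPM against 7.81 to 5193 TPM, and ADAM7 was at 1399 TPM, within its range of 468 to 2780 TPM. The calls were fitted again without 4 libraries, which were prostate gland library 2, epididymis library 1 and bulbourethral gland library 1 of BMI and bulbourethral gland library 3 of DSE. Epididymis libraries 2 and 3 of DSE, with 1543 and 391 TPM of the vesicular gland list, and testis library 2 of DSE were kept in that fit. In bulk tissue, fewer cells of a type and less RNA per cell cannot be told apart.

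The glands differed in which part of the HOX series they expressed. The number of HOX genes with at least 1 TPM in all 6 libraries was 4 in the testis, 22 each in the epididymis, the vesicular gland and the prostate gland, and 17 in the bulbourethral gland. Summed over the 37 genes, HOX transcripts came to 80.4 ± 18.2 TPM in the testis, 987 ± 271 TPM in the epididymis, 703 ± 362 TPM in the vesicular gland, 642 ± 53.8 TPM in the prostate gland and 374 ± 55.8 TPM in the bulbourethral gland (SD, n = 6). Genes of groups 10 to 13 made up 61.2% ± 1.60 of the HOX transcripts in the bulbourethral gland and 63.0% ± 18.8 in the prostate gland, against 2.01% ± 0.545 in the vesicular gland, 6.66% ± 8.24 in the epididymis and 1.95% ± 0.751 in the testis. In the prostate gland the share was 25.3% in BMI library 2 and 64.4% to 72.7% in the other 5. Weighting each gene's paralogue number by its TPM, the mean number was 5.89 in the vesicular gland, 6.63 in the epididymis, 7.98 in the testis, 9.73 in the bulbourethral gland and 10.2 in the prostate gland, where BMI library 2 had 7.59 and the other 5 had 10.4 to 10.96. Both measures lean on HOXB13 in the prostate gland, where it averaged 250 of the 642 TPM. It was listed at 0 in the bulbourethral gland. Isoforms that join HOXD10 and HOXD11 are left out of these sums.

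**Figure D1:**
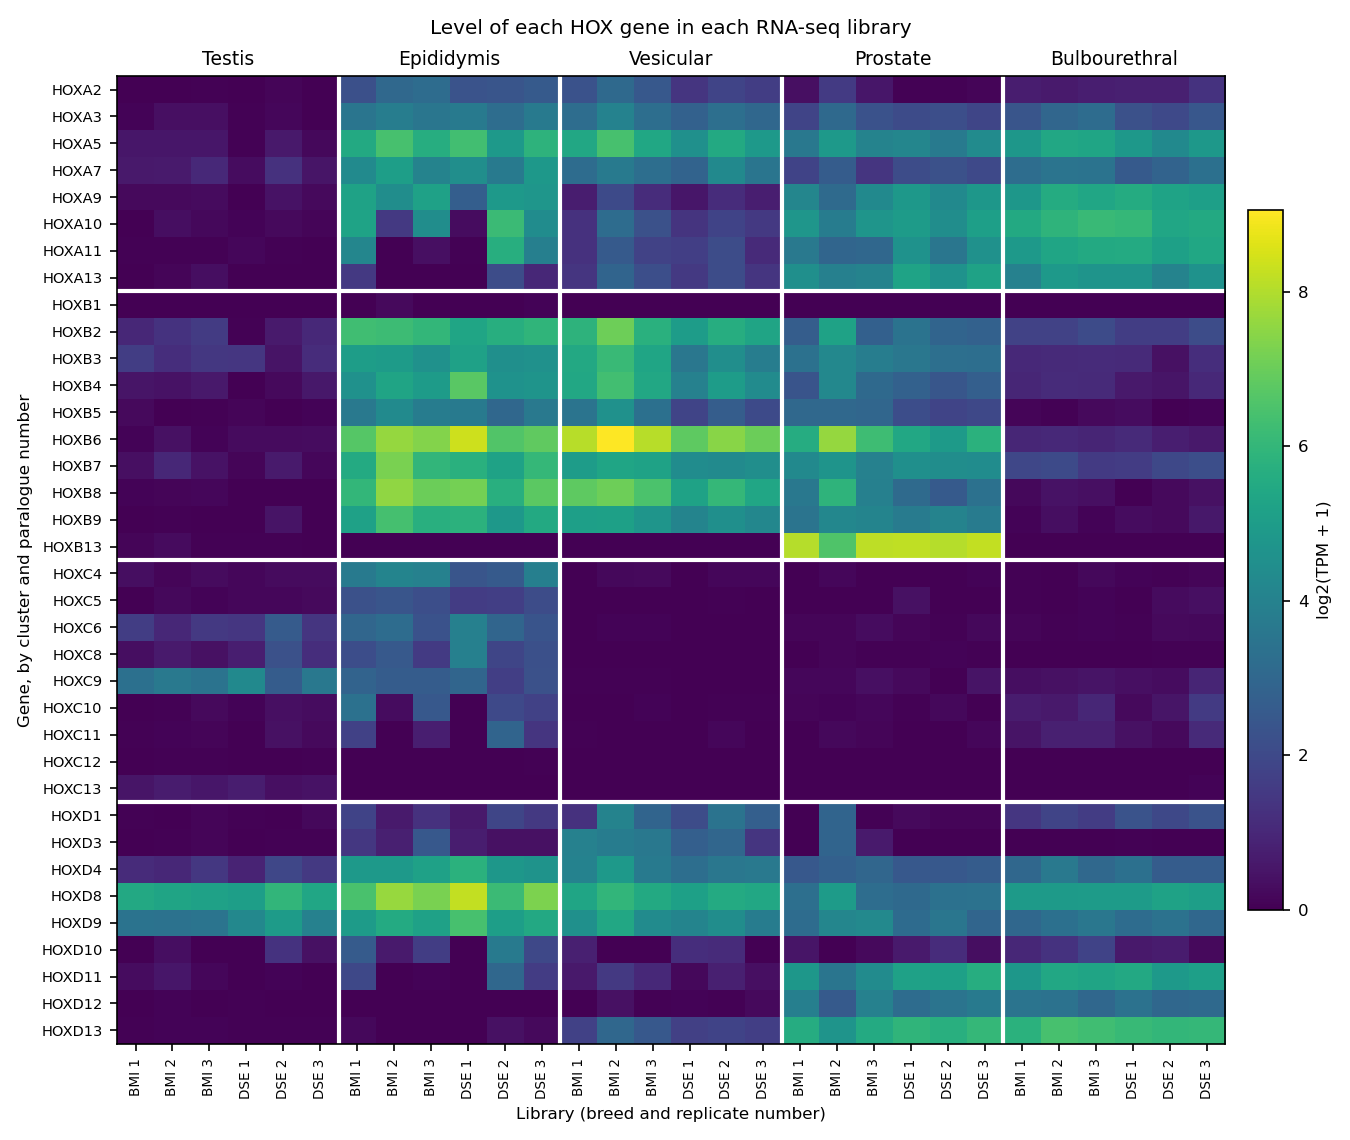
Levels of 36 of the HOX genes (rows, by cluster and paralogue number) in the 30 RNA-seq libraries (columns, by gland and breed), as log2(TPM + 1) on the colour scale. The testis shows few genes, the epididymis and vesicular gland the middle of the HOXB cluster, and the prostate gland and bulbourethral gland the high-numbered HOXA and HOXD genes, with HOXB13 at 92.7 TPM or more in the prostate gland libraries only.

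HOXB13 was the gene that marked a gland most sharply. It is ENSSSCG00000017541, at chr12:24945603-24950714 on the minus strand, at the far end of the HOXB cluster. In the prostate gland it stood at 264, 92.7 and 287 TPM in the 3 BMI libraries and at 294, 265 and 297 TPM in the 3 DSE libraries. It was listed at 0 in all 18 libraries of the epididymis, the vesicular gland and the bulbourethral gland, and at 0.215 TPM or less in the testis. The lowest value came from the prostate gland library that held vesicular gland transcripts, and without it the mean was 281 ± 16.2 TPM (SD, n = 5) in place of 250 ± 78.4 TPM (n = 6). HOXB13 was the highest HOX gene of the prostate gland. It differed from the vesicular gland (limma on log2(TPM + 1), adjusted p = 1.64e-20) and from the bulbourethral gland (adjusted p = 1.49e-20), and no fold is given because the other side is listed at 0. The fit shares 1 spread over all 10 groups, most of which are at 0 for HOXB13. These p-values therefore do not measure the spread between prostate gland libraries alone. The transcripts split between the annotated one, at 83.5 to 236 TPM in the 6 prostate gland libraries, and an isoform from the Iso-seq reads, at 9.18 to 67.5 TPM. Exons of another gene on the opposite strand cover 8.67% of the exonic bases of HOXB13, and strand was not stated for the libraries, so reads from that stretch cannot be assigned to either gene.

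Other genes followed HOXB13 over the 30 libraries. The 5 genes with the highest Pearson correlation with it on log2(TPM + 1), out of 19796, had r between 0.978 and 0.988, which is given as a description since the libraries fall into a prostate group and a rest. The only one with a symbol was GABRR3, a subunit of a GABA receptor, at 12.7 ± 5.82 TPM in the prostate gland (SD, n = 6) and at most 0.628 TPM elsewhere. The others were 3 genes added by the Iso-seq reads and 1 Ensembl gene with no symbol, at 2.29 to 14.5 TPM on average in the prostate gland and at most 0.398 TPM elsewhere.

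HOXD13 and HOXA13, also of group 13, did not share this pattern, since they were expressed in both the prostate gland and the bulbourethral gland. HOXD13 (ENSSSCG00000057890, chr15:81893951-81897466) was at 47.3, 24.8 and 45.0 TPM in the BMI prostate gland and at 59.6, 52.1 and 64.6 TPM in the DSE prostate gland. In the bulbourethral gland, where it was the highest HOX gene, it was at 54.8, 85.7 and 77.6 TPM in BMI and at 67.7, 63.6 and 64.1 TPM in DSE. The vesicular gland held 2.19 to 7.10 TPM (median 2.42), the epididymis at most 0.310 TPM and the testis at most 0.0719 TPM. The ranges of prostate gland and bulbourethral gland overlapped (log2 difference -0.53 ± 0.19, adjusted p = 0.0503), and both lay above the vesicular gland without overlap. HOXA13 (ENSSSCG00000062559, chr18:45367309-45380863) was at 22.0, 14.5 and 15.5 TPM in the BMI prostate gland, at 37.4, 23.4 and 36.2 TPM in the DSE prostate gland, at 14.97 to 28.2 TPM (median 23.9) in the bulbourethral gland, at 1.61 to 6.62 TPM (median 2.56) in the vesicular gland at most 3.30 TPM in the epididymis and at most 0.257 TPM in the testis. Prostate gland and bulbourethral gland did not pass the test for HOXA13 (log2 difference 0.12 ± 0.32, adjusted p = 0.947). HOXC13, the last gene of the group, was under 1 TPM in every library and reached 0.642 TPM, in the testis.

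Of the 7 genes of groups 9 to 12 in the HOXA and HOXD clusters, HOXD12, HOXD11, HOXA11, HOXA10 and HOXA9 were also higher in both sinus glands than in the vesicular gland, and HOXD9 was not. HOXD10 was not either, but isoforms that join HOXD10 and HOXD11 are counted under neither gene, and with them added to both, HOXD10 was called higher in the prostate gland (log2 difference, vesicular gland minus prostate gland, -3.82 ± 0.49, adjusted p = 1.96e-06). HOXD12 was at 4.90 to 14.9 TPM (median 11.03) in the prostate gland and at 7.08 to 10.2 TPM (median 8.62) in the bulbourethral gland, reached 0.331 TPM in the vesicular gland and was listed at 0 in the 6 epididymis libraries. HOXD11 was at 10.3 to 49.4 TPM (median 30.6) in the prostate gland and at 26.8 to 43.2 TPM (median 36.1) in the bulbourethral gland, against 0.147 to 1.85 TPM in the vesicular gland. HOXA11 was at 6.71 to 23.4 TPM (median 11.2) in the prostate gland, at 28.1 to 45.7 TPM (median 40.2) in the bulbourethral gland and at 1.09 to 4.98 TPM (median 2.33) in the vesicular gland. HOXA10 and HOXA9 gave the same order. HOXA10 was at 12.8 to 33.9 TPM (median 25.7) in the prostate gland, at 40.3 to 69.1 TPM (median 51.5) in the bulbourethral gland and at 1.43 to 8.28 TPM (median 2.21) in the vesicular gland. HOXA9 was at 7.70 to 27.2 TPM (median 18.8), at 26.97 to 47.01 TPM (median 38.6) and at 0.479 to 3.06 TPM (median 0.949) in those glands, and at 5.52 to 36.3 TPM (median 27.3) in the epididymis. In the testis these 5 genes reached at most 0.473 TPM. HOXA10 and HOXA11 did not overlap between prostate gland and bulbourethral gland, but neither passed the test of that difference (adjusted p = 0.278 and 0.102). When limma was fitted to these glands alone, both were called higher in the bulbourethral gland (-1.10, adjusted p = 0.00682, and -1.56, adjusted p = 0.00127).

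**Figure D2:**
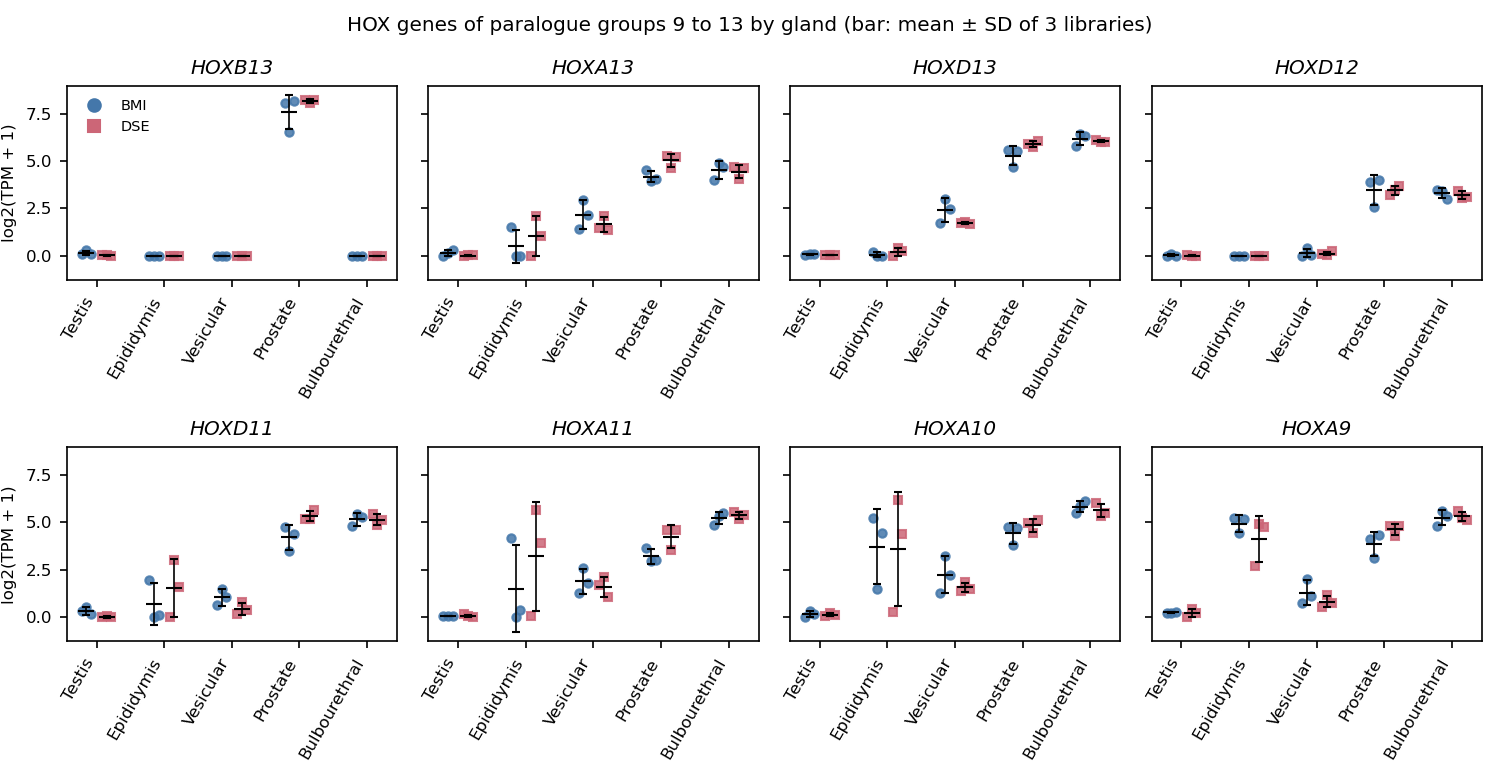
Levels of 8 genes of paralogue groups 9 to 13 by gland, as log2(TPM + 1) on the vertical axis. Points are libraries, by breed, and bars are the mean and SD of the 3 libraries of a group. HOXB13 stands above 0 in the prostate gland, while HOXA13, HOXD11, HOXD12 and HOXD13 are high in both the prostate gland and the bulbourethral gland.

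The remaining genes of groups 9 to 12 had other patterns. HOXB9 was at 27.2 to 82.0 TPM (median 47.8) in the epididymis, at 16.1 to 34.5 TPM (median 23.8) in the vesicular gland, at 10.2 to 17.4 TPM (median 14.1) in the prostate gland, at 0.484 TPM or less in the bulbourethral gland and at 0.376 TPM or less in the testis. HOXD9 was present in every gland, from a median of 39.1 TPM in the epididymis through 20.2 TPM in the vesicular gland, 12.4 TPM in the testis and 9.56 TPM in the prostate gland to 8.66 TPM in the bulbourethral gland, and the ranges of each pair of neighbours in that order overlapped. Of the 34 HOX genes that reached 1 TPM in 3 or more libraries, only HOXC9 had its highest mean in the testis. It was at 5.204 to 18.8 TPM (median 10.6) there, at 2.24 to 6.69 TPM (median 5.25) in the epididymis and at 0.910 TPM or less in the other glands. HOXC10, HOXC11 and HOXD10 were low, with highest values of 9.38, 6.53 and 11.9 TPM, all in the epididymis, and at most 1.92, 1.13 and 2.56 TPM in the bulbourethral gland, 0.146, 0.146 and 1.21 TPM in the prostate gland, 0.0622, 0.108 and 1.27 TPM in the vesicular gland and 0.301, 0.338 and 1.52 TPM in the testis. The value of HOXD10 leaves out the isoforms joined to HOXD11, which averaged 37.6 TPM in the prostate gland, 37.8 TPM in the bulbourethral gland and 1.10 TPM in the vesicular gland and reached 52.1 TPM. HOXC12 reached 0.0396 TPM and HOXB1, a hindbrain gene of group 1, reached 0.166 TPM.

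By cluster, the HOXB genes set the Wolffian duct glands and the prostate gland apart from the bulbourethral gland. Their sum was 539 ± 196.0 TPM in the epididymis, 520 ± 293 TPM in the vesicular gland, 412 ± 39.9 TPM in the prostate gland, 8.63 ± 1.36 TPM in the bulbourethral gland and 3.58 ± 1.21 TPM in the testis (SD, n = 6). HOXB6 led the cluster in both Wolffian duct glands. It was at 101, 195.8 and 164 TPM in the BMI epididymis and 331, 95.4 and 115 TPM in the DSE epididymis, and at 271, 532 and 269 TPM in the BMI vesicular gland and 112, 175 and 129 TPM in the DSE vesicular gland. In the prostate gland it was at 48.2, 195 and 74.8 TPM in BMI and 41.9, 29.4 and 54.5 TPM in DSE, the highest of these again in the library with vesicular gland transcripts. It did not exceed 1.11 TPM in the bulbourethral gland or 0.312 TPM in the testis. The HOXC cluster was expressed in the epididymis (36.7 ± 5.97 TPM) and the testis (15.4 ± 3.49 TPM), and summed to 0.206 ± 0.124 TPM in the vesicular gland, 0.584 ± 0.218 TPM in the prostate gland and 2.05 ± 1.35 TPM in the bulbourethral gland. The HOXA and HOXD clusters were expressed in all 4 ducts and accessory glands, at 81.4 to 199 TPM and 102 to 247 TPM on average.

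The testis held little HOX transcript apart from HOXD8, HOXD9 and HOXC9. HOXD8 was at 42.7, 38.2 and 35.2 TPM in BMI and at 33.0, 61.7 and 39.8 TPM in DSE, a range that overlapped those of the vesicular gland (34.9 to 60.9 TPM) and the bulbourethral gland (29.4 to 36.3 TPM). The epididymis held more of it, at 72.0 to 300 TPM (median 152), and the prostate gland less, at 7.61 to 9.55 TPM in 5 libraries and 30.4 TPM in BMI library 2. The value of 61.7 TPM came from the testis library with the low germ cell sum. Its part in that value was not tested. HOXD8 also shares 22.5% of its exonic bases with exons on the opposite strand.

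Between neighbouring glands, the comparisons ask which HOX genes change along the tract. They were fitted with limma over all 19796 genes with at least 1 TPM in at least 3 of the 30 libraries, of which 34 were HOX genes. HOXB1, HOXC12 and HOXC13 did not reach that level. A gene was called at an adjusted p (Benjamini-Hochberg) below 0.05 and a log2 difference of at least 1.

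Against the epididymis, the testis had lower levels of 27 HOX genes and higher levels of 0, where 51.0% of all genes were called and 21.6% were called lower in the testis. At an unadjusted p under 0.05, 31 HOX genes passed, and 74.3% of all genes. The median log2 difference, testis minus epididymis, was -2.10 over the 34 HOX genes and -0.02 over all genes (0.13 with size factors), and the libraries of the 2 glands did not overlap for 21 HOX genes (43.2% of all genes). The largest differences were in HOXB6 (-7.01 ± 0.30 SE, adjusted p = 8.18e-17), HOXB8 (-6.64 ± 0.31, adjusted p = 7.00e-16), HOXB7 (-5.49 ± 0.22, adjusted p = 3.79e-17), HOXB9 (-5.48 ± 0.20, adjusted p = 4.73e-18), HOXA5 (-5.35 ± 0.26, adjusted p = 1.65e-15) and HOXB2 (-4.97 ± 0.32, adjusted p = 4.34e-13). HOXB8, for example, was at 51.2 to 187 TPM (median 119) in the epididymis and at 0.104 TPM or less in the testis. HOXC9 was higher in the testis by 0.99 ± 0.22, just short of the fold used, and was called with size factors and without the 4 libraries named above. The epithelium list (5 genes) summed to 14.3 to 41.5 TPM in the testis and 912 to 1703 TPM in the epididymis. The smooth muscle list (5 genes) summed to 92.0 to 164 TPM and 1772 to 18155 TPM. Lists of testis germ cells and testis somatic cells were higher in the testis. The part of these lists in the HOX differences was not tested.

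Between epididymis and vesicular gland, both from the Wolffian duct, all 7 HOXC genes tested were higher in the epididymis, beside 10 genes of the other clusters that were called in either direction. Of the 34 HOX genes, 13 were called higher in the epididymis and 4 in the vesicular gland, where 36.5% of all genes were called, 34.6% higher in the epididymis and 1.92% higher in the vesicular gland. The median log2 difference was 0.66 over the HOX genes and 0.74 over all genes. With size factors that equalise the typical gene, the median of all genes moved to 0.05 and the HOX calls to 7 and 7, where 8.64% and 6.52% of all genes were called in these directions, with HOXA10, HOXB7, HOXC11, HOXD4, HOXD8 and HOXD10 lost and HOXB3, HOXB4 and HOXB6 called higher in the vesicular gland. Without the 4 libraries named above HOXA10, HOXC11 and HOXD10 were lost, and HOXB9 and HOXD9 were gained. No called HOX gene turned direction in any gland comparison. Spermadhesin and related transcripts of the vesicular gland list took 317135 to 399306 of the 1000000 TPM of a vesicular gland library, and the size factors were 0.385 to 0.953 there.

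HOXA9 gave the largest difference (3.47 ± 0.31, adjusted p = 2.22e-09). HOXC4 followed (3.30 ± 0.17, adjusted p = 1.23e-13), at 4.29 to 15.8 TPM (median 12.98) in the epididymis and 0.185 TPM or less in the vesicular gland. HOXC6 (2.92 ± 0.22, adjusted p = 2.11e-10), HOXC9 (2.48 ± 0.22, adjusted p = 1.92e-09) and HOXC8 (2.37 ± 0.25, adjusted p = 4.05e-08) did not overlap between the glands either. These 5 were called with size factors too. Of the genes higher in the vesicular gland, HOXD3 differed most (-2.04 ± 0.34, adjusted p = 1.76e-05), at 1.65 to 14.7 TPM (median 9.13) against 0.314 to 4.64 TPM (median 0.702) in the epididymis. That call was lost, at -0.38, when isoforms that join HOXD4 and HOXD3 were added to both genes. The libraries did not overlap for 8 HOX genes (25.1% of all genes).

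Between vesicular gland and prostate gland 22 of the 34 HOX genes were called and 12 were not, among them all 7 HOXC genes tested. The 8 HOX genes called higher in the prostate gland were HOXA9, HOXA10, HOXA11, HOXA13, HOXB13, HOXD11, HOXD12 and HOXD13, and the 14 called higher in the vesicular gland all had numbers of 8 or less. With size factors the latter were 16, with HOXB9 and HOXD9 added, so that this limit did not hold, and 6.60% of all genes were called in that direction. With joined isoforms added, HOXD10 was higher in the prostate gland too. Of all genes 14.8% were called, 3.43% higher in the vesicular gland and 11.4% higher in the prostate gland. The median log2 difference, vesicular gland minus prostate gland, was 0.45 over the HOX genes and -0.27 over all genes, the latter at 0 with size factors. After HOXB13, the largest were HOXD11 (-4.02 ± 0.37, adjusted p = 1.57e-08), HOXD13 (-3.51 ± 0.19, adjusted p = 5.80e-13), HOXD12 (-3.33 ± 0.18, adjusted p = 1.04e-12), HOXA9 (-3.18 ± 0.31, adjusted p = 2.75e-08) and HOXA10 (-2.73 ± 0.64, adjusted p = 0.00197). The libraries did not overlap for 11 HOX genes (10.5% of all genes), among them these 8. HOXD1 and HOXD3, higher in the vesicular gland, were at 6.49 and 6.61 TPM in BMI prostate gland library 2 and at most 0.164 and 0.568 TPM in the other 5. Without the 4 libraries named above the counts stayed at 14 and 8. The call of HOXA11 was lost with a pseudocount of 0.1 and without library 1 of the BMI prostate gland or library 1 of the BMI vesicular gland.

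Between prostate gland and bulbourethral gland, both from the urogenital sinus, all 9 HOXB genes tested were higher in the prostate gland, and no other HOX gene was. The bulbourethral gland was higher in 4, which were HOXA7, HOXA9, HOXD1 and HOXD8. Of all genes 7.65% were called, 2.01% higher in the prostate gland and 5.64% higher in the bulbourethral gland, and the median log2 difference was -0.15 over the HOX genes and -0.11 over all genes (0 with size factors). After HOXB13 came HOXB6 (5.03 ± 0.30, adjusted p = 3.19e-12, and 4.70 without the 4 libraries named above), HOXB9 (3.63 ± 0.20, adjusted p = 7.82e-13), HOXB8 (3.48 ± 0.31, adjusted p = 8.93e-09), HOXB3 (2.62 ± 0.21, adjusted p = 1.82e-09) and HOXB7 (2.51 ± 0.22, adjusted p = 7.99e-09). HOXB7, the highest of the cluster in the bulbourethral gland, was at 1.91 to 3.48 TPM (median 2.88) there and at 14.8 to 25.1 TPM (median 20.4) in the prostate gland. The 9 HOXB genes and 4 others did not overlap between the glands (10.7% of all genes). The smooth muscle list summed to 137 to 2937 TPM in the prostate gland and 65.5 to 401 TPM in the bulbourethral gland, with overlap. The epithelium list went the other way, at 1245 to 2337 TPM and 2363 to 2793 TPM. The part of these lists was not tested. With size factors HOXA7 and HOXA9 were no longer called, so that the split became 9 and 2, where 3.11% and 3.58% of all genes were called. HOXA9 was also lost with a pseudocount of 0.1, without the 4 libraries named above, or without any 1 of library 2 of the BMI prostate gland, library 2 of the DSE prostate gland, library 2 of the BMI bulbourethral gland and library 1 of the DSE bulbourethral gland. HOXA7 was lost without library 3 of the BMI prostate gland, and HOXD1 without library 1 or 3 of the BMI prostate gland, without library 2 of the BMI bulbourethral gland, with no filter and with the 2 glands alone. Without the 4 libraries HOXA5 was gained, higher in the bulbourethral gland. HOXA10 and HOXA11 were gained with the 2 glands alone, and HOXA2 and HOXC10 with a pseudocount of 0.1, all higher in the bulbourethral gland.

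Taken over both glands of each origin, the Wolffian duct glands were higher in 20 HOX genes and the urogenital sinus glands in 8, where 6.69% and 6.36% of all genes were called in these directions. The median log2 difference was 1.12 over the HOX genes and -0.01 over all genes. The 8 genes higher in the sinus glands were the same as in the step from vesicular gland to prostate gland, a comparison that shares those libraries. With joined isoforms added, HOXD10 was called higher in the sinus glands as well (-3.38 ± 0.35, adjusted p = 2.39e-08). HOXD13 differed most (-4.74 ± 0.13, adjusted p = 3.42e-19), followed by HOXB8 (4.42 ± 0.22, adjusted p = 3.69e-14), HOXB6 (4.08 ± 0.21, adjusted p = 6.32e-14), HOXD11 (-4.03 ± 0.26, adjusted p = 7.25e-12) and HOXD12 (-3.29 ± 0.13, adjusted p = 3.93e-16). HOXB13, listed at 0 in the Wolffian duct glands, was called from the prostate gland alone (adjusted p = 8.92e-18). Other calls also rested on 1 gland of a pair. Among the 8, HOXA9 and HOXA10 averaged 25.4 and 25.1 TPM in the epididymis, no lower than the 19.3 and 24.9 TPM of the prostate gland. Among the 20, HOXC4, HOXC6 and HOXC8 averaged 5.15 to 10.9 TPM in the epididymis and 0.117 TPM or less in each of the other 3 glands, and HOXB5, HOXB7, HOXB9 and HOXD9 were not called between vesicular gland and prostate gland. Libraries of the 2 origins did not overlap for 4 HOX genes, HOXA13, HOXD11, HOXD12 and HOXD13, against 1.32% of all genes. The HOX calls, 20 and 8, were the same with size factors, where 7.62% and 5.40% of all genes were called in these directions. They were also the same without the 4 libraries named above.

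**Figure D3:**
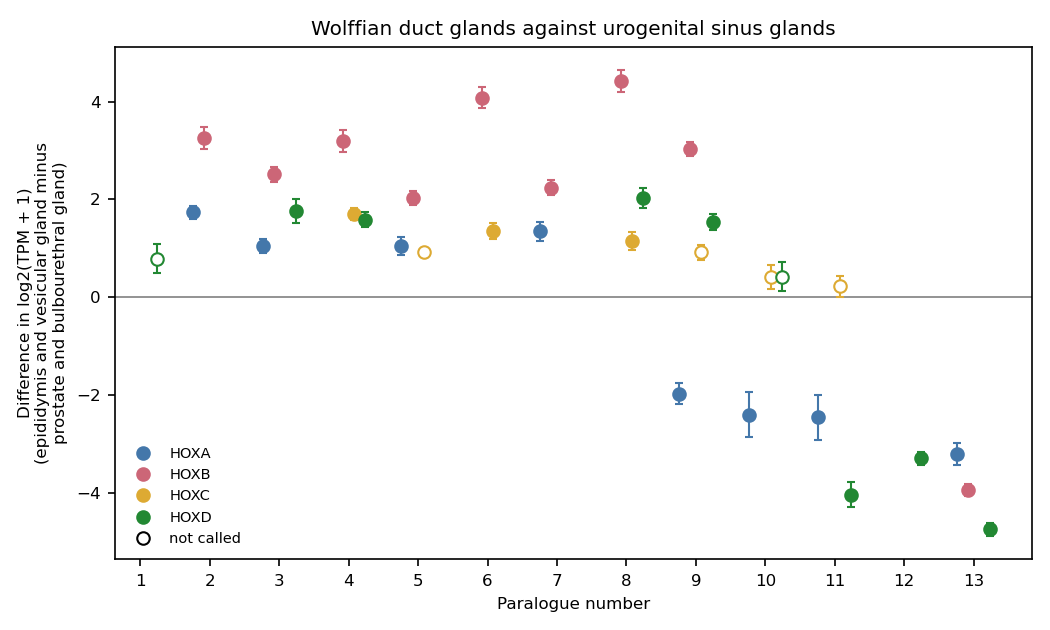
Difference between Wolffian duct glands and urogenital sinus glands (log2(TPM + 1), vertical axis, with its SE) for 33 of the HOX genes tested, by paralogue number on the horizontal axis and by cluster. Open points were not called. The 8 called genes below 0 all have numbers of 9 or more, and the value of HOXB13 rests on the prostate gland because it is listed at 0 in the other 3 glands.

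In the epididymis, genes of groups 10 and 11 ranged from near 0 to 70.6 TPM between libraries. HOXA10 was at 37.2, 1.83 and 20.5 TPM in the BMI libraries and at 0.218, 70.6 and 20.2 TPM in the DSE libraries. HOXA11 was at 16.9, 0 and 0.287 TPM in BMI and at 0.0483, 50.3 and 14.2 TPM in DSE. Library 2 of BMI and library 1 of DSE were low in both genes, and library 2 of DSE was the highest. HOXD11 was listed at 0 in the 2 low libraries and reached 7.22 TPM in library 2 of DSE, and HOXA13, listed at 0 in the 2 low libraries and in library 3 of BMI, reached 3.30 TPM in library 2 of DSE. HOXB6, in contrast, was highest in library 1 of DSE, at 331 TPM. Groups 10 to 13 made up 21.7% of the HOX transcripts in library 2 of DSE and 0.0193% in library 1 of DSE.

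Other values moved with these libraries, and their part in the difference was not tested. The median transcript integrity that the authors give, a measure of RNA quality, was the lowest of the RNA-seq libraries in library 1 of DSE. The smooth muscle list (5 genes, all present) summed to 10491, 1772 and 4346 TPM in the BMI epididymis and to 2769, 18155 and 6314 TPM in DSE, the highest in the library with the most HOXA10. The vesicular gland list summed to 5878, 25.4 and 9.83 TPM in BMI and to 8.64, 1543 and 391 TPM in DSE. The endothelium list summed to 525, 53.4 and 43.4 TPM in BMI and to 73.0, 230 and 177 TPM in DSE. These sums were highest in library 1 of BMI or library 2 of DSE, as were those of the fibroblast list (6233 and 2695 TPM against 353 to 1253 TPM in the other 4) and the leukocyte list (105 and 91.5 TPM against 13.4 to 56.8 TPM). The germ cell list was highest in the libraries low in HOXA10, at 981 TPM in library 2 of BMI and 217 TPM in library 1 of DSE against 11.8 to 125 TPM in the other 4. Both breeds had high and low libraries, so that the breeds did not separate. With this spread, HOXA10 was called higher in the epididymis than in the vesicular gland (1.76 ± 0.64, adjusted p = 0.0199), and the call was lost with a pseudocount of 0.1, with size factors, with the compared glands alone, without the 4 libraries named above, and without any 1 of epididymis library 1 of BMI, epididymis library 2 or 3 of DSE, or vesicular gland library 1 of BMI.

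**Figure D4:**
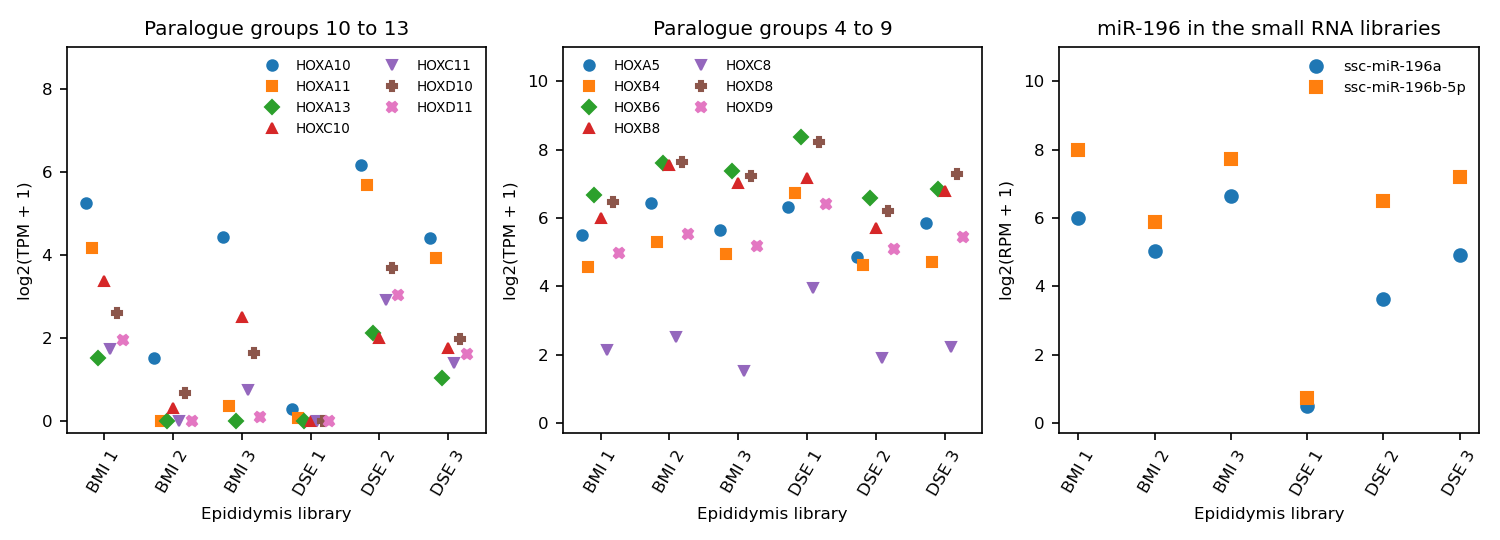
Levels in the 6 epididymis libraries (horizontal axis) of 7 genes of groups 10 to 13 (left), 7 genes of groups 4 to 9 (middle), as log2(TPM + 1), and of miR-196a and miR-196b-5p in the small RNA libraries with the same names (right), as log2(RPM + 1). HOXA10 runs from 0.218 TPM in DSE 1 to 70.6 TPM in DSE 2, and miR-196b-5p is at 0.67 RPM in DSE 1.

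Breeds were compared within each gland, DSE minus BMI. In the testis, the epididymis, the prostate gland and the bulbourethral gland limma called 0 HOX genes, where 4.78%, 0.702%, 0.596% and 0.298% of all genes were called, and 2, 3, 8 and 1 HOX genes of the 34 passed an unadjusted p under 0.05, against 18.1%, 7.14%, 13.1% and 3.96% of all genes. In the vesicular gland 2 HOX genes were called, both lower in DSE, where 0.490% of all genes were called. HOXB5 was at 10.3, 22.8 and 9.19 TPM in the BMI vesicular gland and at 2.58, 5.32 and 3.06 TPM in DSE (-1.63 ± 0.28, adjusted p = 0.00300). HOXB3 was at 42.8, 69.7 and 39.5 TPM in BMI and at 11.02, 21.3 and 13.4 TPM in DSE (-1.68 ± 0.30, adjusted p = 0.00527). All 3 DSE libraries lay below all 3 BMI libraries for both genes, as they did for 12 HOX genes in that gland (22.9% of all genes in either direction). The fibroblast list (5 genes) summed to 584, 954 and 481 TPM in BMI and 148, 347 and 160 TPM in DSE, and the epithelium list (5 genes) to 1169 to 1298 TPM in BMI and 727 to 1007 TPM in DSE, both without overlap, and their part in the breed difference was not tested. The median of all genes was -0.27 there and 0 with size factors, which kept HOXB5 and lost HOXB3, with 0.808% of all genes called. Both calls were lost with a pseudocount of 0.1 or when the vesicular gland was fitted alone, and that of HOXB3 also without library 2 of BMI or library 1 of DSE.

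In the other glands the HOX gene with the smallest adjusted p was HOXD9 in the testis, at 9.98, 9.67 and 10.1 TPM in BMI and 17.9, 30.0 and 14.6 TPM in DSE (0.94 ± 0.34, adjusted p = 0.102, and called without library 3 of DSE). The 30.0 TPM came from the testis library with the low germ cell sum, and its part in the difference was not tested. In the epididymis it was HOXC4, at 11.8, 15.8 and 14.6 TPM in BMI and 4.29, 4.85 and 14.1 TPM in DSE (-0.95 ± 0.24, adjusted p = 0.0593, and called without library 1 of BMI or library 3 of DSE). In the prostate gland it was HOXB5, at 7.26, 7.33 and 6.99 TPM in BMI and 3.38, 2.60 and 2.90 TPM in DSE (-1.05 ± 0.28, adjusted p = 0.0883). With size factors, which moved the median of all genes from 0.23 to 0, the prostate gland difference was -1.45 and was called, as were 0.642% of all genes. In the bulbourethral gland it was HOXA3, at 4.199, 6.90 and 8.24 TPM in BMI and 3.76, 2.95 and 4.50 TPM in DSE (-0.63 ± 0.29, adjusted p = 1.0). The test of whether the breed difference itself differed between glands called HOXB5 (adjusted p = 0.0402), where 2.94% of all genes were called. Means of HOXB5 were 14.5 TPM in BMI and 10.4 TPM in DSE in the epididymis, and under 0.1 TPM in both breeds in the testis and the bulbourethral gland. That call was lost with a pseudocount of 0.1, with a replicate block, and in 19 of the 30 fits that left out 1 library.

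The Iso-seq libraries gave full-length reads for 29 of the 37 HOX genes, 2095 reads on 111 isoforms in all. These are counts from 1 library per breed and gland, without a test, and the intervals are exact Poisson 95% intervals that cover counting error only. HOXB13 had 218 reads in the DSE prostate gland (190 to 249) and 3 reads in the BMI prostate gland (0.619 to 8.77), and 0 in the other 8 libraries, which allows up to 3.69 reads in each. The BMI prostate gland library also had 4029 reads of the vesicular gland gene PSP-I, against 0 in the DSE prostate gland and 4309 and 7211 in the vesicular gland, and it had 43 reads of HOXA5 and 30 of HOXD8 where the DSE prostate gland had 5 and 6. HOXA10 had 76 and 40 reads in the bulbourethral gland of BMI and DSE, 9 and 31 in the prostate gland, and 0 in both epididymis libraries. The BMI bulbourethral gland library also had 1998 reads of ACTA1, the actin of skeletal muscle, against 0 in DSE, and its part in these counts was not tested. HOXA13 had 13 and 7 reads in the bulbourethral gland, 0 and 18 in the prostate gland and 0 in both epididymis libraries. HOXD8 led in the epididymis, with 342 and 150 reads, and in the testis, with 29 and 27. No read was found for HOXB1, HOXB3, HOXC4, HOXC5, HOXC9, HOXC11, HOXC12 or HOXC13, although HOXB3 stood at 11.02 to 69.7 TPM in the vesicular gland by RNA-seq. HOXB6, the highest HOX gene of the Wolffian duct glands by RNA-seq, had 2 reads. The Iso-seq libraries held 231413 to 458697 full-length reads each.

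Some transcripts of the clusters could not be given to 1 gene. Isoforms that join HOXD10 and HOXD11 summed to 37.6 ± 13.5 TPM in the prostate gland, 37.8 ± 5.92 TPM in the bulbourethral gland and 1.10 ± 0.721 TPM in the vesicular gland (SD, n = 6), and are counted under neither gene above. Isoforms joining HOXD4 and HOXD3 reached 23.8 TPM, those joining HOXB8 and HOXB9 1.56 TPM. Genes named as antisense to a HOX gene reached 310 TPM for HOXA2, 78.7 TPM for HOXB5, 47.7 TPM for HOXA10 and 37.4 TPM for HOXA11. Of the 37 HOX genes, 12 share exonic bases with a gene on the other strand, most of all HOXA11 (38.7%), HOXD8 (22.5%), HOXA2 (19.5%) and HOXA10 (13.5%), and without strand these reads cannot be told apart. HOXA3 and HOXA5 overlap on the same strand, so that their split is uncertain.

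The miR-10 and miR-196a genes lie inside the clusters, and their mature sequences are shown because miR-10a and miR-10b share a seed and differ in their host cluster. Capitals mark the seed, bases 2 to 8, in the RefSeq entries.
miR-10a-5p: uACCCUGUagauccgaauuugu
miR-10b: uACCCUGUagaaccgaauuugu
miR-196a: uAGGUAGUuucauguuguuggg
MiR-10a-5p, from the HOXB cluster (chr12:24833694-24833715), was at 38169 ± 10273 RPM (reads scaled to the library total) in the vesicular gland, 23424 ± 18491 in the epididymis, 21654 ± 8428 in the prostate gland, 1663 ± 1094 in the testis and 826 ± 136 in the bulbourethral gland (SD, n = 6), and miR-10b, from the HOXD cluster (chr15:81951653-81951674), was at 11402 to 44934 RPM on average in all 5. MiR-196a, encoded at chr5:19204463-19204484 and chr12:24886364-24886385, has 2 entries, which averaged 39.3 and 46.2 RPM in the epididymis, 18.6 and 22.4 RPM in the bulbourethral gland and at most 3.11 RPM in the other glands, and the first entry ran from 0.41 to 99.2 RPM within the epididymis.

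The windows upstream of HOXB13 and HOXD13, 250 bases before the start of each gene, are shown because these genes led the prostate gland and the bulbourethral gland. Both strands of the windows were searched for TTTAC and TTTAT, which group 13 proteins and CDX factors bind, AGAACA, the core of an androgen receptor site, and the TATA box TATAAA, which overlaps the reverse of TTTAT. Capitals mark the matches.
HOXB13: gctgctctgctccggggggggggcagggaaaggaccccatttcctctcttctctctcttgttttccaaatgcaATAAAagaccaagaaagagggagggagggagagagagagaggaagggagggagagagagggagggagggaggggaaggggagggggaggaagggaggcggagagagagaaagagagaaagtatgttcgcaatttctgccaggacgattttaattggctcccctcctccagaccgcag
HOXD13: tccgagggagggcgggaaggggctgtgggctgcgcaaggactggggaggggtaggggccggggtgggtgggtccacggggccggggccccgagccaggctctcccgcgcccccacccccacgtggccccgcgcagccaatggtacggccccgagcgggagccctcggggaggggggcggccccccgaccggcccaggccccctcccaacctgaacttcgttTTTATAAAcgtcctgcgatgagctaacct
The HOXB13 window (chr12:24950715-24950964, minus strand) had 1 match to TTTAT, on the opposite strand, 5 CG pairs and 56.4% G and C. The HOXD13 window (chr15:81893701-81893950) had 2 overlapping matches each to TTTAT and TATAAA, 22 CG pairs and 74.0% G and C. TTTAT occurred in the windows of 17 of the 37 HOX genes and in 43.6% of all 34257 gene windows, TTTAC in 11 (31.4%), AGAACA in 2 (14.2%) and TATAAA in 8 (14.9%). The median number of CG pairs was 12 in the HOX windows and 5 in all windows.

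HOX proteins bind DNA together with PBX and MEIS partners, and their clusters are held silent or active by chromatin regulators such as EZH2 and KMT2A and by retinoic acid receptors. Of 20 such genes, 19 were found and 16 tested. From testis to epididymis, 2 of the 16 were higher in the testis and 7 in the epididymis, where 29.4% and 21.6% of all genes were called in these directions. They included EZH2, the enzyme of the silencing complex, at 86.0 ± 28.8 TPM in the testis and 2.44 ± 1.09 TPM in the epididymis (4.62 ± 0.29 SE, adjusted p = 1.90e-13), PBX4 (3.11 ± 0.28, adjusted p = 3.64e-10), MEIS3 (-2.65 ± 0.34, adjusted p = 1.31e-07) and MEIS1 (-2.44 ± 0.27, adjusted p = 1.30e-08). From epididymis to vesicular gland, 6 of the 16 were higher in the epididymis, where 34.6% of all genes were called higher, and 0 in the vesicular gland. MEIS1 was at 21.9 ± 12.8 and 2.17 ± 1.45 TPM (2.79 ± 0.27, adjusted p = 9.08e-09), and of the 6 only MEIS1 was called with size factors. MEIS2, MEIS3 and PBX3 differed by 1.62 ± 0.44, 1.45 ± 0.34 and 1.25 ± 0.25 (adjusted p = 0.00302, 0.000665 and 0.000163). From vesicular gland to prostate gland, MEIS2 (-2.16 ± 0.44, adjusted p = 0.000569) and PBX3 (-1.88 ± 0.25, adjusted p = 3.52e-06) were higher in the prostate gland and PBX4 (1.76 ± 0.28, adjusted p = 3.43e-05) in the vesicular gland. These were 2 and 1 of the 16, where 11.4% and 3.43% of all genes were called in these directions. Between prostate gland and bulbourethral gland limma called 0 of the 16, where 7.65% of all genes were called, and 5 passed an unadjusted p under 0.05, against 28.9% of all genes. With size factors it was 0 too. By origin, PBX4 was higher in the Wolffian duct glands (1.49 ± 0.20, adjusted p = 1.49e-06) and PBX3 (-1.20 ± 0.18, adjusted p = 6.43e-06) and MEIS2 (-1.03 ± 0.31, adjusted p = 0.0111) in the sinus glands. These were 1 and 2 of the 16, where 6.69% and 6.36% of all genes were called in these directions. MEIS2 fell short of the fold used with size factors. Between the breeds 1 of the 16 was called, in the testis, where 4.78% of all genes were called. With size factors 2 were called in the testis, 1 in the prostate gland and 1 in the bulbourethral gland, where 4.94%, 0.642% and 0.349% of all genes were called.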

How the data were processed

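RNA-seq (30 libraries), small RNA-seq (30) and PacBio Iso-seq (10) were made from 5 glands of 2 breeds. The authors aligned RNA-seq reads to Sscrofa11.1 with STAR 2.7.10a and deposited TPM per transcript from Salmon 1.9.0 on a merged Ensembl 107 and Iso-seq annotation of 133722 transcripts. Strand was not stated, and TPM files carry no read depth. The authors deposited full-length read counts per isoform for Iso-seq and RPM values per miRNA from miRDeep2 for small RNA. Here TPM was summed over the 35552 gene names. The 19796 genes that reached 1 TPM in 3 or more libraries were tested with limma 3.58.1 (R 4.3.3, trend) on log2(TPM + 1) in 1 fit of the 10 groups, with Benjamini-Hochberg adjustment over all of them. The scale understates changes of low genes. Iso-seq counts were given exact Poisson 95% intervals without a test. Sequences came from RefSeq. Python 3.11.15 with pandas 2.3.3 and scipy 1.17.1 was used.

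The members and lists were chosen with earlier results of these data known. The text names the 6 called HOX genes with the largest change in each gland comparison, up to 3 in each breed comparison (or the one with the smallest adjusted p), HOXB13, the 5 genes most correlated with it, and up to 4 cofactors for each gland comparison. Levels are given for groups 9 to 13. The values of 1 member are not reported here, though it is in the counts over all members. Genes outside the rule were named after their values were seen. Alternatives were a pseudocount of 0.1, no filter, size factors, a replicate block, fits of the compared glands alone, each library left out, and, chosen after seeing the data, joined isoforms added and 4 libraries left out (BMI prostate gland 2, BMI epididymis 1, BMI bulbourethral gland 1 and DSE bulbourethral gland 3). The fit was tested on simulated data. For vesicular gland against prostate gland it recovered 35.5%, 94.5% and 99.5% of genes changed by 1, 2 and 4 on the log2 scale, and for the breed difference in the testis 15.5%, 85.5% and 97.0%. A change of 1 lies at the fold needed for a call, so that threshold by itself limited its recovery.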

Additional observations from a re-analysis of the deposited data

Results flagged for a closer look

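In 9 of 102 sets of 6 libraries of a gland, 1 library stood apart from the other 5 by Dixon's test on log2(TPM + 1) (critical value 0.625), which chance gives in about 1 in 20. Library 2 of the BMI prostate gland accounted for 6 of them. It was the lowest for HOXB13 (92.7 TPM) and the highest for HOXA3 (7.49 TPM), HOXB2 (36.3 TPM), HOXD1 (6.49 TPM), HOXD3 (6.61 TPM) and HOXD8 (30.4 TPM), and the vesicular gland list summed to 242457 TPM there. Library 1 of the DSE epididymis was the lowest for HOXA9 (5.52 TPM) and the highest for HOXB4 (105 TPM), and of the epididymis list CRISP1 stood at 21.3 TPM and ADAM7 at 1399 TPM there. Library 2 of the DSE bulbourethral gland was the lowest for HOXB3 (0.320 TPM). The breed difference of HOXB5 was called as differing between glands (interaction in limma, adjusted p = 0.0402). It was 1 of 34 HOX genes (2.94%), the same share as of all genes (2.94%). No HOX gene was called in 19 of the 30 fits that left out 1 library.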

How the results depend on the processing

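Over the 34 HOX genes, the 5 gland comparisons and all alternatives, 3692 values kept their call, 65 lost it and 51 gained it. No called HOX gene turned direction there, but 4 values that were not called were called with the opposite sign, HOXB3 and HOXB4 with size factors (epididymis against vesicular gland) and HOXD10 with joined isoforms added (from 0.03 to -3.82 for vesicular gland against prostate gland and from 0.42 to -3.38 by origin). Of the 33 HOX differences that the naming rule chose, breed comparisons included, 666 values kept their call, 8 lost it and 4 gained it, and of the counts 397 stayed within 1.5 times and 50 did not. The cause was not tested for these changes. For testis against epididymis, 1 gene was higher in the testis with a pseudocount of 0.1, with size factors and without the 4 libraries, and 0 to 1 when single libraries were left out. With size factors, epididymis against vesicular gland gave 7 and 7, and prostate gland against bulbourethral gland gave 2 higher in the bulbourethral gland, which was 2 to 4 with single libraries left out. Breed calls in the vesicular gland were 0 with a pseudocount of 0.1, 1 with size factors, 0 with that gland alone and 1 to 2 with single libraries left out (1 without BMI library 2 or DSE library 1). In the prostate gland 1 was called with a pseudocount of 0.1 and 1 with size factors. In the testis and in the epididymis 0 to 1 were called with single libraries left out. The interaction gave 0 with a pseudocount of 0.1, 0 with the replicate block, 0 without the 4 libraries and 0 to 2 with single libraries left out. The Iso-seq reads of HOX genes in the BMI prostate gland were 160 with joined isoforms added, against 128. Same-numbered libraries deviated together (all 3 correlations over 0.1) in 2 of 25 pairs of groups, DSE testis or DSE epididymis with DSE vesicular gland, and not in the others (range over all pairs -0.55 to 0.39), so pairing was not shown for the series. The replicate block left the gland counts at 27, 17, 22, 13 and 28. TPM without read depth limits what can be said of genes near 0.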
